A study of Mus musculus with 63 samples.

Results

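The variable (V) segments of the mouse immunoglobulin loci were described in RNA sequencing libraries of peritoneal macrophages. Segments were chosen by their summed counts: a segment was included when its symbol starts with Ighv (heavy chain), Igkv (kappa light chain) or Iglv (lambda light chain) and its read counts summed to 200 or more over all 63 libraries. This left 151 of the 348 V segments listed, among 56748 genes in all: 74 of 185 Ighv segments on chromosome 12, 74 of 160 Igkv segments on chromosome 6 and 3 of 3 Iglv segments on chromosome 16. Another 129 segments summed to 1 to 199 counts and 68 had no count in any library. By annotated kind, 147 of the 151 were functional V genes and 4 were pseudogenes (Igkv4-77, Igkv4-60, Ighv1-2 and Igkv2-107).

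Each developing B cell joins 1 heavy chain V segment to a diversity and a joining segment, and 1 kappa or lambda V segment to a joining segment, so that its descendants transcribe the same pair. The V segments in a tissue's RNA therefore report which B cells left RNA there, and macrophages do not rearrange these loci. The peritoneal cavity is the known home of B-1 cells, a self-renewing B cell type that arises early in life and secretes natural IgM. B-1a cells are known for recurrent receptors against phosphatidylcholine, in which Ighv11-2 (also called VH11) pairs with Igkv14-126 (Vκ9), or Ighv12-3 (VH12) pairs with Igkv4-91 (Vκ4).

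The mice were R1441C knock-in animals, which carry that change in the endogenous Lrrk2 locus, and B6 controls with the wild-type gene. Both sexes were used, and animals were young (2 to 3 months) or old (18 to 21 months), per the labels and the design text. Every animal received 3% thioglycollate 72 h before its cells were collected, and the cells that adhered were cultured for 18 h with vehicle or with interferon-gamma (IFN-γ) at 100 U. Of knock-in females there were 5 libraries of old animals with IFN-γ, 5 of old animals without it, 2 of young animals with it and 5 of young animals without it, and of knock-in males 5, 3, 3 and 3. In the same order there were 5, 5, 3 and 3 libraries of wild-type females and 5, 3, 5 and 3 of wild-type males. The study set out to examine how the Lrrk2 change affects myeloid cells by sex and age. The labels do not say which libraries came from separate animals or from pooled cells, so p-values measure only the spread between these libraries. Elicited and adherent macrophages were not sorted, and the labels give no marker by which other cells were removed.

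Some libraries went against their labels. The 3 knock-in old male libraries titled as untreated carry an IFN-γ treatment tag, and were kept as untreated here. IFN-γ target genes followed the age label and not the treatment label: Gbp2, a guanylate-binding protein that IFN-γ induces, lay at 4372 to 7510 CPM (reads scaled by TMM-adjusted library size) in the 36 old libraries and at 13.5 to 883 in the 27 young ones, while IFN-γ libraries (16.7 to 6663) and untreated libraries (13.5 to 7510) overlapped. The files do not settle whether the age and treatment labels stand for what they say, and exchanged labels were not tested. An IFN-γ, untreated, old or young library is therefore, throughout, one that carries that label. Knock-in old IFN-γ females 4 and 5 held 1.69 and 1.55 CPM of Xist, against 144 to 562 CPM in the other 13 IFN-γ female libraries. Each library held between 73.6 and 106.6 M counts (median 98.2 M). Macrophage markers were present in every library, with sums over 8 genes of 18781 to 38530 CPM.

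The sequences that carry the findings are the ends of the leading V segments, where each ends in the codons read into the antigen-binding loop. Shown are the last 60 coding bases of 7 heavy and 7 kappa segments that led a library or form a B-1 pair, from GENCODE M21 transcripts on GRCm38. The last in-frame cysteine codon is in capitals. Each heavy segment is followed by the kappa segment that it is set beside in the text.
Ighv11-2: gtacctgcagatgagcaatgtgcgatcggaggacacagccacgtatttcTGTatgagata
Igkv14-126: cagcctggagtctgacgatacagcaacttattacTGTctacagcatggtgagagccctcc
Ighv12-3: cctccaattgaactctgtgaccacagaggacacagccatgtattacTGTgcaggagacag
Igkv4-91: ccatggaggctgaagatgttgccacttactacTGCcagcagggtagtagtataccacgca
Ighv5-6: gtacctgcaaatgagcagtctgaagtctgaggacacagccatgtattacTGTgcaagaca
Igkv8-30: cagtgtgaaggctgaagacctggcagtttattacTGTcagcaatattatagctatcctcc
Ighv5-16: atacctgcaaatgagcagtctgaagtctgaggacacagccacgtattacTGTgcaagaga
Igkv12-44: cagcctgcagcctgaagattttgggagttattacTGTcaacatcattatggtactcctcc
Ighv1-64: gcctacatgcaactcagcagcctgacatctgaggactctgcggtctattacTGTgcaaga
Igkv6-15: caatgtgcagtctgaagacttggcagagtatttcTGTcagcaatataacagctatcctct
Ighv1-52: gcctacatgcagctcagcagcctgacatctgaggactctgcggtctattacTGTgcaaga
Igkv1-117: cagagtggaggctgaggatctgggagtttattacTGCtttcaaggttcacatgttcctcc
Ighv1-78: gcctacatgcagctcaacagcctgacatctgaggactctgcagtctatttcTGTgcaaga
Igkv17-127: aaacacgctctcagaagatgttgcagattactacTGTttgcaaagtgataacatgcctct

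After the cysteine codon Ighv11-2 holds 8 bases before its end, Ighv12-3 holds 11 and the 3 Ighv1 segments hold 6. Reads over such similar ends can be split between segments by the authors' counting, which is not described in the sources used here. Over the last 280 transcript bases, the median identity of a member to its nearest V segment was 95.7%, and 14 members had a neighbour at 98% or more. Ighv11-2 differed from Ighv11-1 by 4 edits (98.6% identity), and Ighv11-1 summed to 444 counts against 66553. Igkv14-126 stood further apart, with 90.7% identity to Igkv14-111, as did Igkv4-91 (87.9% to Igkv4-60) and Ighv12-3 (79.3% to Ighv3-2). Ighv1-52 and Ighv1-61 shared 98.6% of these bases, and Iglv1 and Iglv2 shared 97.5%, so these pairs are the less certain ones.

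The summed counts that chose the members were very uneven. Igkv14-126 (78978 counts) and Ighv11-2 (66553) led, and together held 26.6% of the members' 547681 counts. They were followed by Igkv8-30 (45225), Ighv5-6 (42947) and Igkv1-117 (24386), and these 5 segments held 47.1%. The first 20 members held 74.6% and the first 50 held 87.9%. Kappa segments took 57.4% of the members' counts, heavy segments 39.5% and lambda segments 3.12%. Just inside the rule lay Ighv6-5 and Igkv3-1 with 200 counts each and Ighv1-58 and Igkv12-98 with 201, and just outside lay Igkv10-95 (198), Ighv3-8 (189) and Igkv4-69 (188).

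A large sum often came from few libraries. In 35 members a single library held 30% or more of the counts, and only 14 members had a count in all 63 libraries. Ighv1-59 had 82.1% of its 2677 counts in wild-type old IFN-γ female 1, and Igkv5-43 had 65.1% of its 6251 counts in knock-in old IFN-γ male 4. Per length, in the authors' FPKM, Ighv11-2 had the highest heavy mean (23.1 FPKM, median library 5.13) and Igkv14-126 the highest kappa mean (35.4, median 8.06). Ighv5-6 (mean 19.1) and Igkv8-30 (19.4) came next in their loci, yet their median libraries held 0.295 and 0.251 FPKM. Iglv1 led the lambda locus (mean 4.77 FPKM, median 2.73), ahead of Iglv2 (1.91) and Iglv3 (0.539). The Ighv1 family gave 38 members and the Igkv4 family 20.

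The amount of V segment RNA differed widely between libraries. Summed over the 151 members, the 33 IFN-γ libraries held 1861 to 57100 counts (median 9673) and the 30 untreated libraries 689 to 2430 (median 1409.5). On the CPM scale the IFN-γ libraries lay at 20.4 to 629 (median 96.0) and the untreated ones at 7.94 to 23.7 (median 14.7), so the groups met only at the edge. Within the IFN-γ label, wild-type females spanned 64.8 to 629 CPM, wild-type males 45.5 to 98.6, knock-in females 20.4 to 163 and knock-in males 27.1 to 415. Cd79a, which every B cell needs to carry its receptor to the surface, lay at 4.92 to 311 CPM under IFN-γ and at 1.42 to 12.3 untreated. Wild-type young IFN-γ female 1 and old IFN-γ female 2 had the highest V sums (629 and 503 CPM) and the most Cd79a (311 and 197 CPM). Other libraries departed from this order. Wild-type old IFN-γ male 4 held 92.6 CPM of V segments with 4.92 of Cd79a, below several untreated libraries. Knock-in IFN-γ males held 8.41 to 26.7 CPM of Cd79a over their wide V range. In bulk libraries more B cells and more immunoglobulin RNA per cell cannot be told apart.

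**Figure D1:**
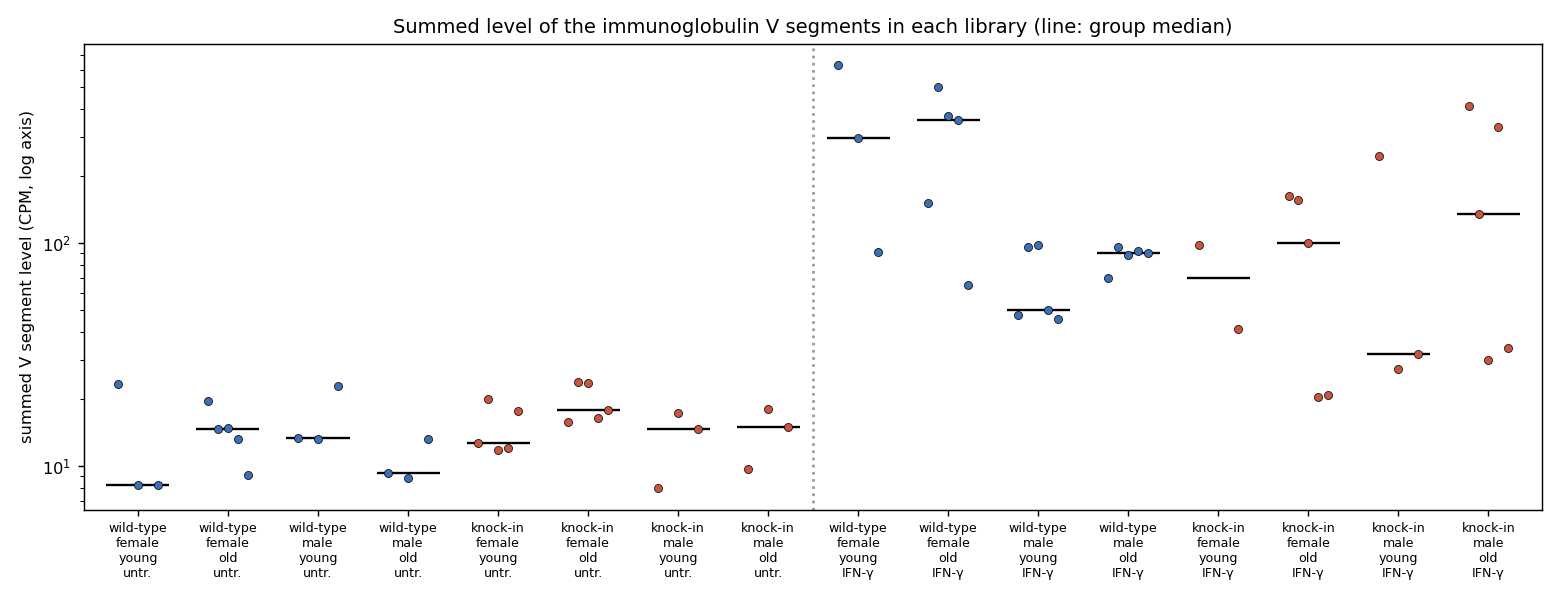
Summed V segment level of each of the 63 libraries (CPM with TMM factors, log axis), by group; each point is 1 library and each line a group median, with wild-type in blue and knock-in in red. IFN-γ libraries lie between 20.4 and 629 CPM and untreated libraries between 7.94 and 23.7.

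Usage was then read within each library as a segment's share of the members' counts of its locus. Ighv11-2 was the leading heavy segment in 45 of 63 libraries (44 by FPKM), and Ighv11-2 together with Igkv14-126 led in 41. These 41 were 27 of the 30 untreated libraries and 14 of the 33 IFN-γ libraries. The remaining IFN-γ libraries were led by other pairs. Ighv5-6 with Igkv8-30 led in 3 wild-type females (old 3 and 4, young 2), where Ighv5-6 took 91.0 to 91.9% of heavy counts and Igkv8-30 78.1 to 79.7% of kappa counts. Ighv5-16 with Igkv12-44 led in 4 knock-in males (old 3 and 5, young 3 and 4) at 43.3 to 51.1% and 45.1 to 50.4%. Ighv1-64 with Igkv6-15 led in 3 knock-in females (old 1 and 2, young 1), and there Ighv1-64 took 39.0 to 44.3%.

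Further pairs led in 1 or 2 libraries. Ighv1-52 with Igkv1-117 led in wild-type old IFN-γ female 2 and young female 1, and Ighv1-52 reached 34.3% of 24177 heavy counts in the latter (exact Clopper-Pearson 95% interval 33.7 to 34.9%). Ighv1-78 with Igkv17-127 led in knock-in old IFN-γ female 3 and young female 2, at 45.0 to 51.5% and 60.2 to 70.4%. Ighv1-59 took 42.5% (41.1 to 43.8%) of the heavy counts of wild-type old IFN-γ female 1. The highest share of any heavy segment was that of Ighv5-6 in wild-type old IFN-γ female 4, 91.9% of 14086 counts (91.4 to 92.3%). At the other end, no heavy segment passed 9.96% (7.53 to 12.9%) of the 522 heavy counts of knock-in old IFN-γ female 4, where Ighv1-9 led. These intervals cover counting error only.

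**Figure D2:**
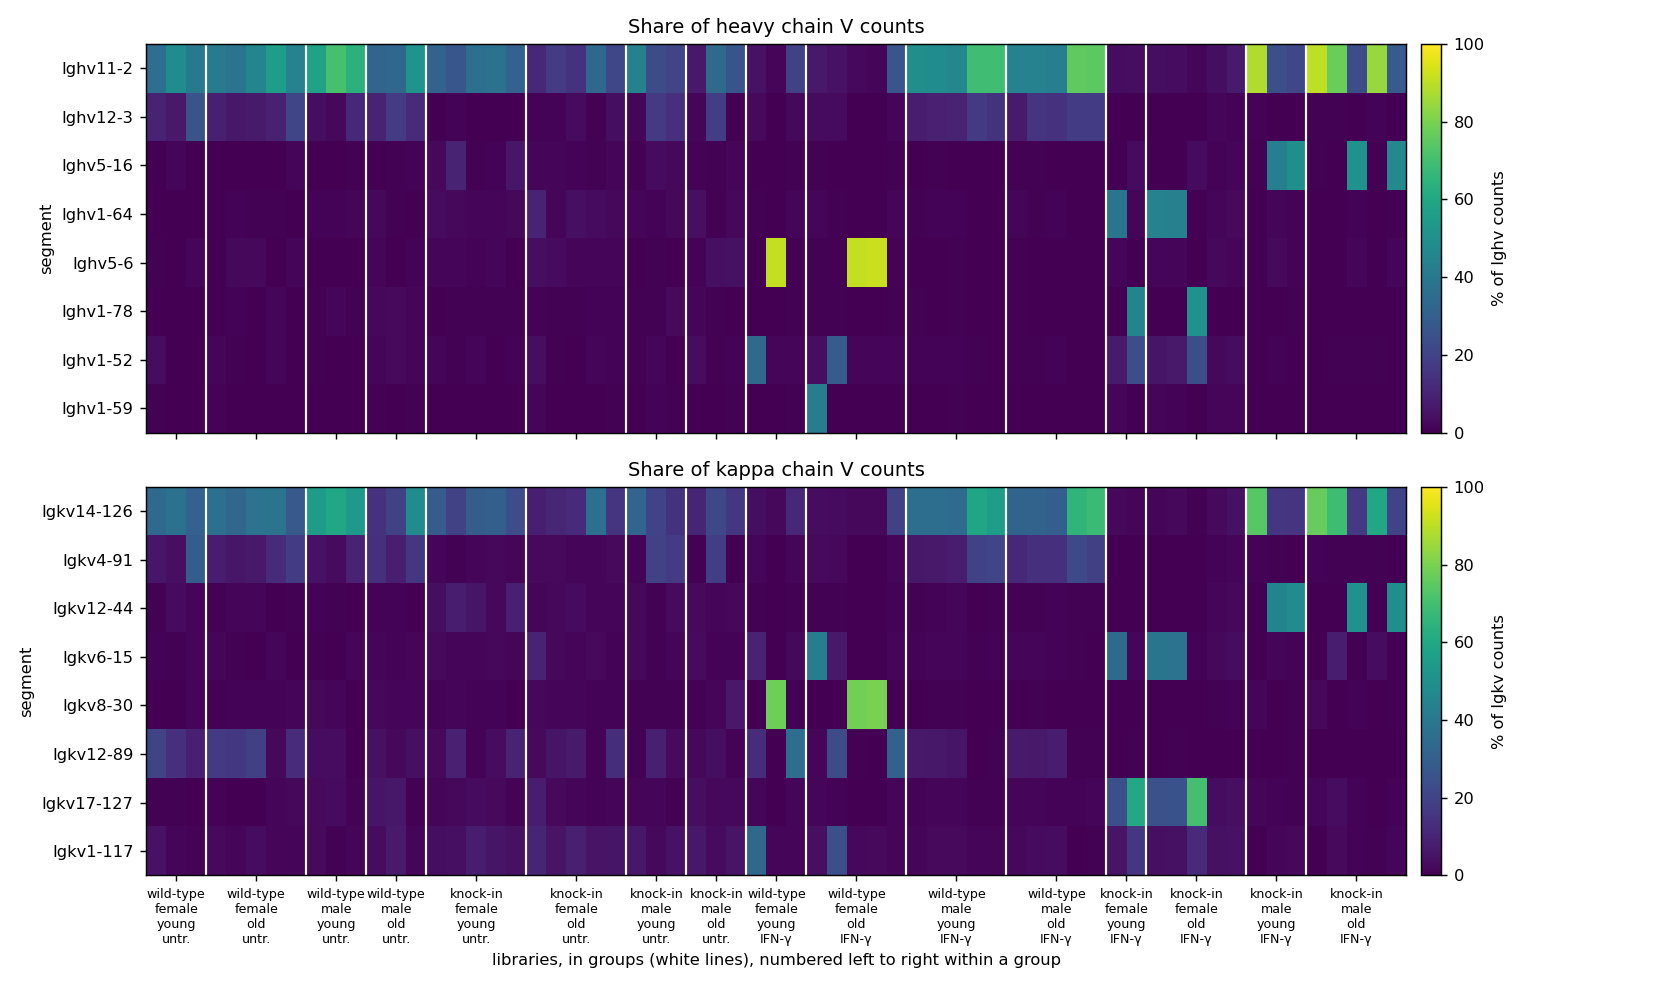
Share of each leading V segment (rows) in the V counts of its locus in each of the 63 libraries (heavy segments on top, kappa below; columns, ordered by treatment, genotype, sex and age label), in percent. Blocks of libraries share a heavy and a kappa segment, such as Ighv5-6 and Igkv8-30 in 3 wild-type IFN-γ females.

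Heavy and kappa segments that led together also varied together. Over the 63 libraries and 77 light chain segments, the share of Ighv11-2 was closest to that of Igkv14-126 (Pearson r = 0.978), with Igkv8-16 next at 0.436. The share of Ighv12-3 was closest to that of Igkv4-91 (r = 0.946), with Igkv3-7 next at 0.349. Both are the known B-1a partners, and no other light segment came near them. Ighv5-6 was closest to Igkv8-30 (0.999), Ighv5-16 to Igkv12-44 (0.996), Ighv1-52 to Igkv1-117 (0.926), Ighv1-78 to Igkv17-127 (0.897) and Ighv1-55 to Igkv12-89 (0.940). Most of these had a closer second light segment than the B-1a pairs. It was Igkv6-29 (0.986) for Ighv5-6, Igkv12-41 (0.757) for Ighv5-16, Igkv4-77 (0.722) for Ighv1-52 and Igkv1-88 (0.711) for Ighv1-55. For Ighv1-78 it was Igkv1-117 (0.343). Ighv1-64 was closer to Igkv4-86 (0.987) than to Igkv6-15 (0.830), although Igkv6-15 led the kappa locus of those libraries. These coefficients are descriptions: the shares come from the same libraries, and a few libraries with a very high share set most of them.

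Which libraries resembled each other was set by more than treatment. By the correlation of shares over the 151 members, the nearest library of 31 of the 33 IFN-γ libraries had the same genotype, sex and treatment label, and in 18 of the 31 it had the other age label. Wild-type old IFN-γ female 3 was nearest to wild-type young IFN-γ female 2 (r = 0.99992), knock-in old male 1 to young male 2 (0.998), and knock-in old female 3 to young female 2 (0.992). Among pairs of IFN-γ libraries with the same genotype and sex, the 65 pairs with different age labels had a median r of 0.965 and the 57 pairs with the same age label one of 0.548. That gap rests on knock-in old IFN-γ female 4, the one IFN-γ library with under 2000 V counts: without it the medians were 0.966 (63 pairs) and 0.950 (53 pairs). In untreated libraries the order was the other way, with 0.843 across age labels (58 pairs) and 0.894 within them (45 pairs). The points share depth and V amount, and no p is given. In untreated libraries 20 of 30 nearest libraries matched in genotype, sex and treatment, 5 of them with the other age label. No library pair within a group was alike to within sampling noise: the lowest median chi-square ratio over genes other than V segments was 3.59, for knock-in old IFN-γ females 1 and 2, where 1 would be sampling noise alone. Each library was counted by itself, and the tests were repeated with close libraries of the same group joined. Pairs with different age labels were outside this check and were not joined. Contrasts that average over or compare the age labels therefore count such libraries as separate, which was not shown.

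The Ighv11-2 and Igkv14-126 pair was described library by library. In wild-type IFN-γ libraries Ighv11-2 lay at 2.41 to 28.7 CPM (median 12.3, n = 18), and in wild-type untreated ones at 0.976 to 6.06 (median 2.42, n = 14). Knock-in IFN-γ libraries spread further, from 0.219 to 145 CPM (median 2.21, n = 15), against 0.264 to 2.40 (median 1.56, n = 16) untreated. The top values were all in knock-in males: old male libraries 1 to 5 held 145, 41.2, 2.23, 103 and 3.26 CPM, and young male libraries 2 to 4 held 88.7, 2.21 and 2.53. Of these 8 males, 4 thus stood above every other library of the series, and the other 4 lay within the untreated wild-type range. Ighv11-2 took 90.5% of 15607 heavy counts in knock-in old male 1 (exact interval 89.99 to 90.92%), and Igkv14-126 took 76.8% of its kappa counts. In knock-in IFN-γ females Ighv11-2 took 1.86 to 7.39% of heavy counts.

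In knock-in libraries the pair changed with the IFN-γ label by sex. Knock-in females held a median of 0.511 CPM of Ighv11-2 under the IFN-γ label (n = 7) and 1.63 untreated (n = 10), and knock-in males 22.2 (n = 8) and 1.29 (n = 6). Igkv14-126 followed, at 0.590 and 1.65 CPM in females and 29.2 and 1.34 in males. The fitted change of Ighv11-2 was -0.77 ± 0.64 SE in knock-in females (log2, edgeR adjusted p = 0.495, where 12.4% of all genes were called) and 5.03 ± 0.73 in knock-in males (adjusted p = 2.13e-05, 0.307% of all genes). The difference between the sexes was 5.80 ± 0.98 for Ighv11-2 and 6.00 ± 0.98 for Igkv14-126 (adjusted p = 0.00194 for both), where 0.0993% of all genes were called. These contrasts within a sex were added after the values were seen. They count knock-in old IFN-γ females 4 and 5, the libraries with almost no Xist, as female. They were not repeated without these libraries, with replicate numbers as a block or with close libraries joined. Knock-in old male 1 and young male 2, both high in Ighv11-2, count as separate libraries although their V usage was alike (above).

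Averaged over sex and age label, Ighv11-2 rose with IFN-γ labels in wild-type (log2 change 2.11 ± 0.43 SE, edgeR adjusted p = 1.36e-04). The average in knock-in libraries (2.13 ± 0.45, adjusted p = 0.00101) joins sexes with opposite signs. The same averages for Igkv14-126 were 1.93 ± 0.42 (adjusted p = 3.62e-04) and 2.26 ± 0.45 (adjusted p = 5.41e-04). The averaged difference between genotypes, 0.02 ± 0.61 for Ighv11-2 (adjusted p = 1.0), likewise joined -2.22 ± 0.87 in females (adjusted p = 0.0947) and 2.25 ± 0.84 in males (adjusted p = 0.365). In wild-type females alone the change was 1.45 ± 0.58 for Ighv11-2 (adjusted p = 0.0549) and 1.22 ± 0.57 for Igkv14-126 (adjusted p = 0.109). With replicate numbers as a block, both averaged knock-in changes missed the threshold (adjusted p = 0.163 and 0.106). Between genotypes, neither segment passed in old IFN-γ females (Ighv11-2 -2.38 ± 0.75, adjusted p = 0.0531) or old IFN-γ males (Ighv11-2 1.57, adjusted p = 0.143).

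The Ighv12-3 and Igkv4-91 pair gave another pattern. Ighv12-3 lay at 0.140 to 6.64 CPM in wild-type IFN-γ libraries (median 3.17) and at 0.120 to 1.05 in wild-type untreated ones (median 0.496). In knock-in libraries it lay at 0 to 1.36 CPM under the IFN-γ label (median 0.0986) and at 0 to 1.27 untreated (median 0.0559). With the IFN-γ label it rose in wild-type (2.46 ± 0.56, adjusted p = 5.72e-04), and its change in knock-in was 0.17 ± 0.65 (adjusted p = 0.937). Igkv4-91 rose in wild-type by 2.24 ± 0.49 (adjusted p = 3.78e-04), and its change in knock-in was -0.18 ± 0.57 (adjusted p = 0.919). The difference between genotypes in the IFN-γ label change passed for Igkv4-91 (-2.42 ± 0.74, adjusted p = 0.0263) and not for Ighv12-3 (-2.29 ± 0.92, adjusted p = 0.0887). The Igkv4-91 difference missed the threshold with replicate numbers as a block (0.145), with close libraries joined (0.119) and without 4 doubted female libraries (0.108).

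Between genotypes, Ighv12-3 was lower in knock-in old IFN-γ males. Wild-type old males 1 to 5 held 1.89, 5.61, 5.16, 6.56 and 6.38 CPM and knock-in old males 1 to 5 held 1.16, 0.382, 0, 1.36 and 0. The groups did not overlap, and the fitted change was -3.13 ± 0.95 (adjusted p = 0.0401). Igkv4-91 lay at 4.51 to 11.7 CPM in wild-type and 0.075 to 2.35 in knock-in old males (-3.15 ± 0.84, adjusted p = 0.0249). In old IFN-γ females Ighv12-3 lay at 1.43, 5.32, 0.244, 0.140 and 0.413 CPM in wild-type and at 0.109, 0.171, 0.0203, 0.0986 and 0.0518 in knock-in libraries 1 to 5, which overlapped at their edge (-4.05 ± 1.08, adjusted p = 0.0243). Igkv4-91 was lower there by 3.29 ± 0.90 (adjusted p = 0.0277). All 4 of these calls missed the threshold with replicate numbers as a block (adjusted p = 0.114 and 0.0671 for Ighv12-3 and Igkv4-91 in males) and with close libraries joined (0.541 and 0.531 in males, 0.232 and 0.241 in females), and the female calls also without the 4 doubted libraries (0.239 and 0.231).

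Set against Ighv11-2, the amount of Ighv12-3 separated the IFN-γ males by genotype. Ighv12-3 had 15.1 to 34.9 counts per 100 counts of Ighv11-2 in the 10 wild-type male IFN-γ libraries and 0 to 1.33 in the 8 knock-in ones, with no overlap. IFN-γ females overlapped, with 5.63 to 58.3 in wild-type and 3.64 to 45 in knock-in libraries, where knock-in old females 4 and 5 held 45 and 11.4 and the others at most 11.3. Untreated males overlapped too (3.16 to 52.7 and 0.758 to 74.1). Young untreated females did not overlap, with 14.4 to 62.7 in 3 wild-type and 0 to 3.08 in 5 knock-in libraries, whereas old untreated females did (16.1 to 47.2 and 2.05 to 20.5). Few reads set these knock-in ratios of young untreated females, where Ighv12-3 took 0 to 0.821% of heavy counts. The same holds for knock-in old IFN-γ female 4, where Ighv12-3 took 1.72% and Ighv11-2 3.83%. Knock-in untreated males old 4, young 3 and young 4 gave Ighv12-3 18.1, 17.1 and 13.8% of their heavy counts, within the wild-type untreated range of 2.24 to 25.4%. In 4 knock-in libraries Ighv12-3 had no count, and in the largest of them by heavy counts (knock-in old IFN-γ male 5, 0 of 1055) this allows a share of up to 0.284%. This ratio was chosen with the values in view, so it is given with no test.

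**Figure D3:**
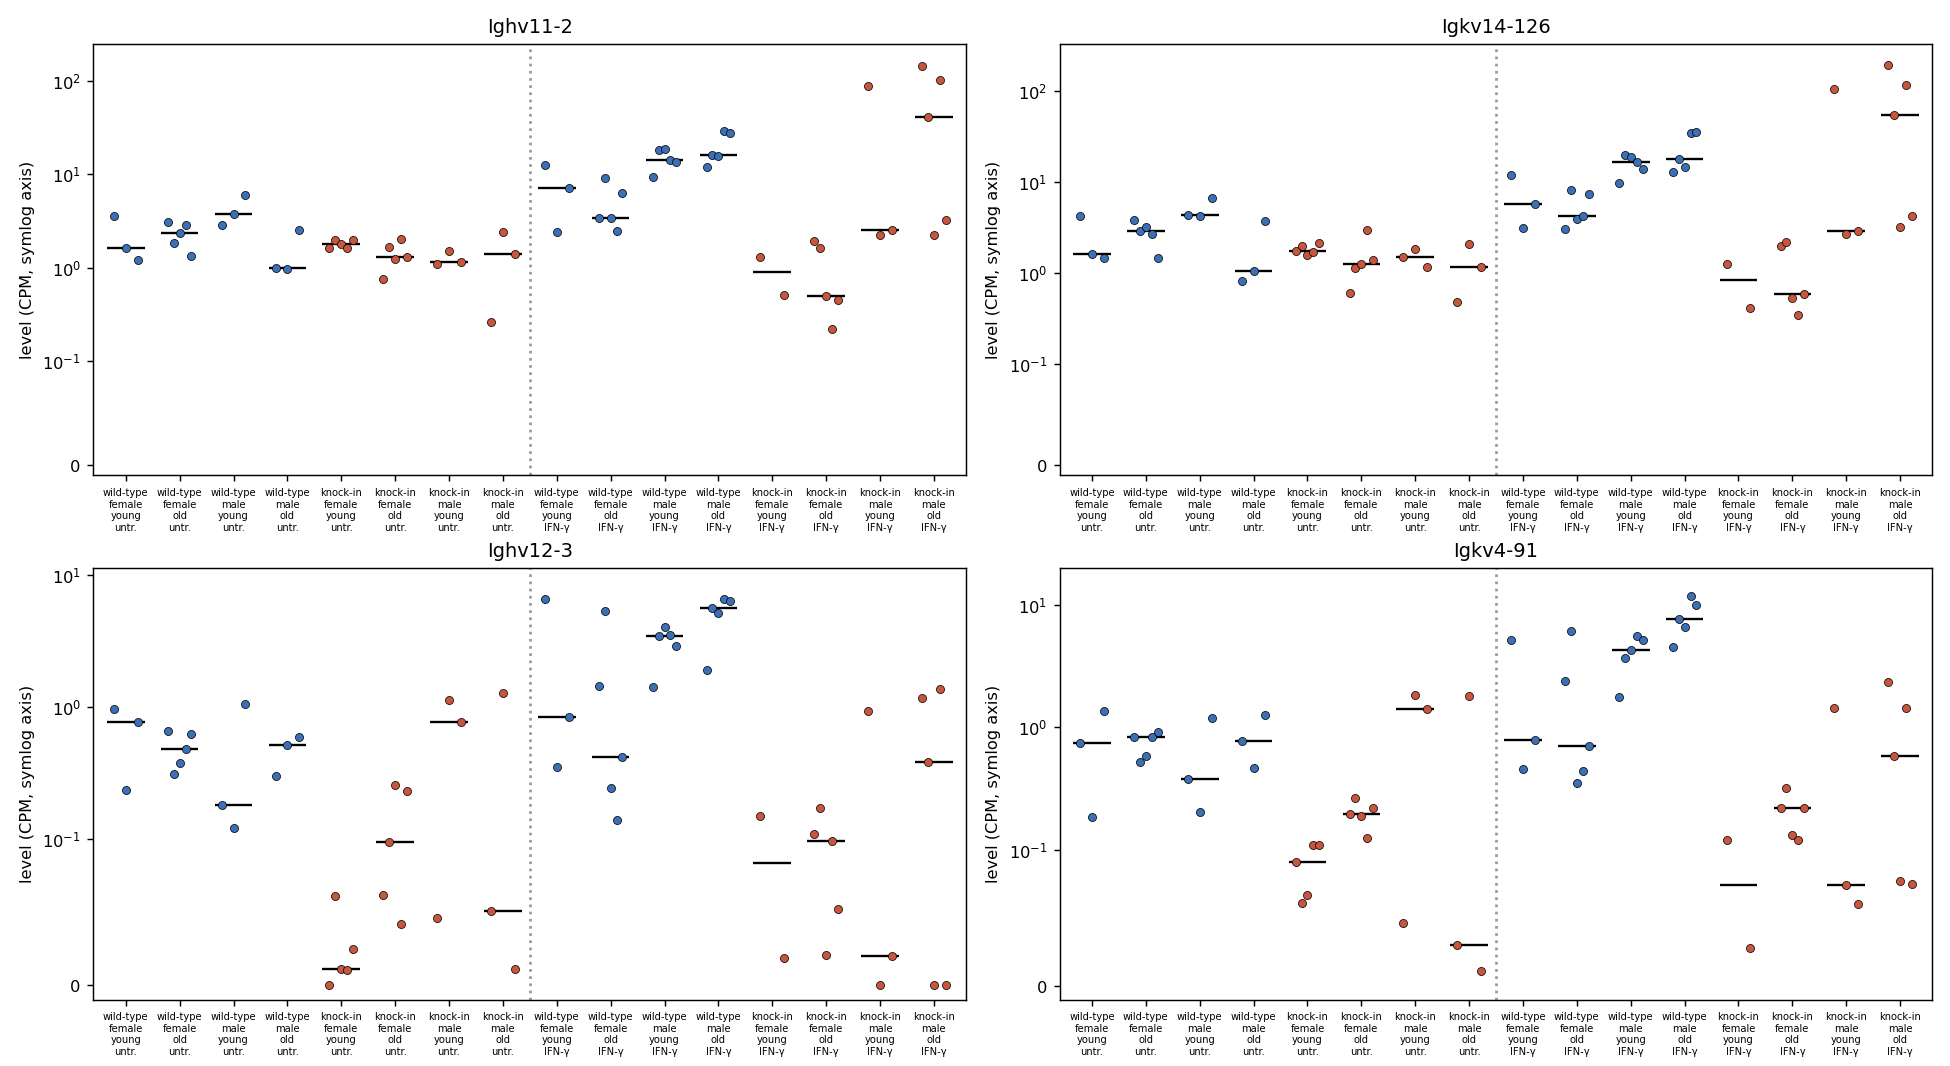
Levels of Ighv11-2, Igkv14-126, Ighv12-3 and Igkv4-91 (CPM with TMM factors, log axis made linear near 0) in each library, by treatment, genotype, sex and age label; each point is 1 library, each line a group median, with wild-type in blue and knock-in in red. In male IFN-γ libraries Ighv12-3 lies at 0 to 1.36 CPM in knock-in and 1.43 to 6.56 in wild-type. Igkv4-91 lies there at 0.0604 to 2.35 and 1.76 to 11.7 CPM, which overlap. Ighv11-2 reaches 145 CPM in a knock-in male.

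Among wild-type IFN-γ males, the libraries numbered 1 to 3 and those numbered 4 and 5 differed at both age labels. Ighv11-2 took 43.0 to 49.3% of heavy counts in the former 6 libraries and 69.1 to 75.6% in the latter 4. Cd79a lay at 15.6 to 33.9 CPM and 4.92 to 6.36 CPM, and Ighm, the constant region of IgM, at 4.26 to 5.24 and 9.08 to 18.2 times the Cd79a level. Markers of other cells split by number too, with summed T cell markers at 7.58 to 19.4 and 1.58 to 2.35 CPM and red cell markers at 3.53 to 8.77 and 41.4 to 61.3 CPM. Their part in the split was not tested. The split by number was noticed in the values and is a description.

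The evenness of usage was measured as the effective number of segments (the inverse Simpson index, the number of equally used segments that would give the same concentration). For heavy segments it was 1.98 to 7.96 in wild-type untreated libraries (median 4.13, n = 14) and 4.85 to 25.3 in knock-in untreated ones (median 10.4, n = 16). IFN-γ libraries lay at 1.18 to 8.61 in wild-type (median 4.17) and 1.22 to 34.0 in knock-in (median 3.39). In knock-in IFN-γ libraries the 2 highest, 30.4 and 34.0, were old females 4 and 5, the libraries with almost no Xist, and they also had the lowest Cd79a of the female IFN-γ libraries (12.3 and 13.0 CPM). In female untreated libraries the genotypes did not overlap: 3.07 to 5.86 in wild-type (n = 8) and 6.67 to 23.1 in knock-in (n = 10). Untreated libraries held few V counts (689 to 2430), which limits how well this number is known.

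The lambda share of light chain V counts followed the same split in untreated females. Lambda segments took 9.55 to 13.8% in wild-type and 19.9 to 30.6% in knock-in untreated females, with no overlap, and 6.94 to 11.4% and 11.8 to 21.7% in untreated males, also with no overlap. Under the IFN-γ label the share was 1.33 to 9.43% in wild-type (median 5.81) and 1.07 to 10.9% in knock-in libraries (median 4.75), and the wild-type range lay inside the knock-in one. These shares were looked at after the values were known, and no test is given.

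**Figure D4:**
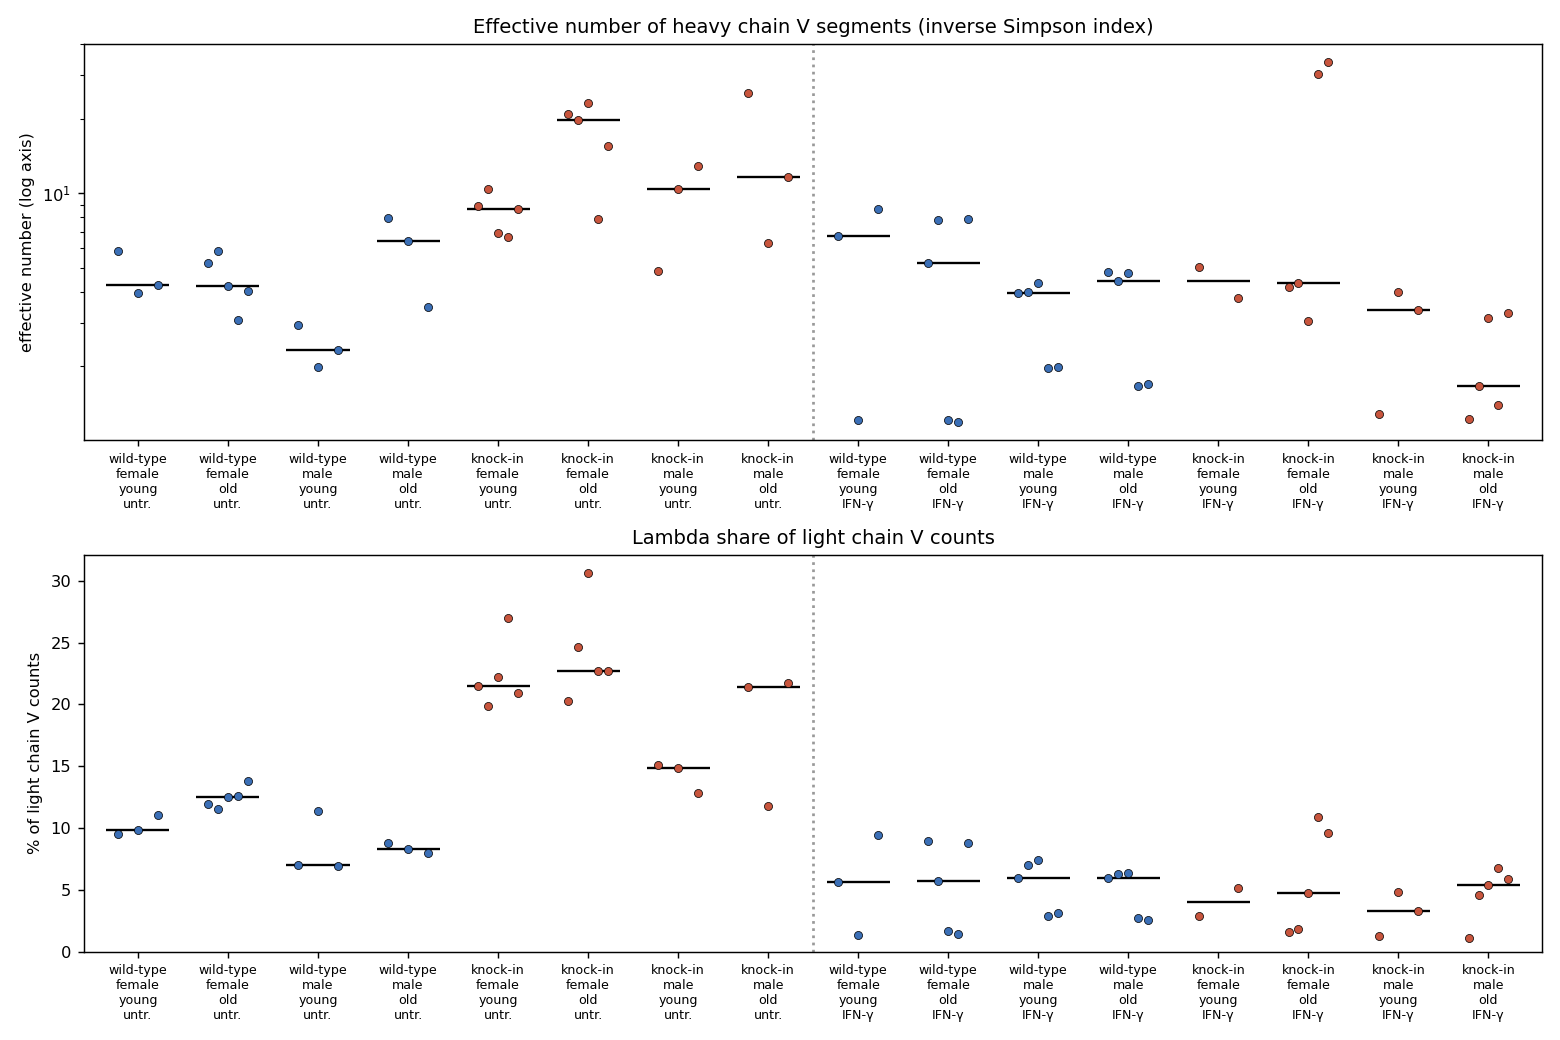
Effective number of heavy V segments (top, log axis) and lambda share of light chain V counts in percent (bottom) for each library, by treatment, genotype, sex and age label; each point is 1 library, each line a group median, with wild-type in blue and knock-in in red. Knock-in untreated females (19.9 to 30.6% lambda) lie above wild-type untreated females (9.55 to 13.8%).

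The lambda segments could be tested one by one. Iglv1 rose with IFN-γ labels in wild-type (2.62 ± 0.36, edgeR adjusted p = 2.00e-07) and its change in knock-in was 0.43 ± 0.34 (adjusted p = 0.519). Iglv2 rose in wild-type (2.01 ± 0.34, adjusted p = 1.09e-05) and fell in knock-in libraries by 1.78 ± 0.37 (adjusted p = 7.57e-04), which gave a difference of -3.79 ± 0.50 between genotypes (adjusted p = 1.27e-05). The knock-in IFN-γ libraries held 0.0705 to 0.945 CPM of Iglv2 and the knock-in untreated ones 0.346 to 1.87. Iglv3 rose in both genotypes (3.38 ± 0.47 and 2.10 ± 0.45, adjusted p = 2.60e-07 and 0.00126), and its difference between genotypes did not pass (-1.27 ± 0.67, adjusted p = 0.198). Between genotypes in untreated libraries no lambda segment passed in any stratum: in old females Iglv1 was 1.48 ± 0.59 (adjusted p = 0.155) and Iglv2 1.31 ± 0.56 (adjusted p = 0.180).

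Across all V segments, the IFN-γ label contrast in wild-type libraries had the most calls. A member was called at an edgeR adjusted p under 0.05 over all 22147 genes tested, and all 151 members were tested. Members were chosen by summed counts, of which IFN-γ libraries held 92.1%, so a segment high in those libraries was more likely to be a member. Counts and medians over the members are therefore descriptions and no support for a rise: 24 members had under 10 counts in the 14 wild-type untreated libraries together. In wild-type libraries 144 of 151 rose with the IFN-γ label and none fell (71 Ighv, 70 Igkv and 3 Iglv), where 31.3% of all genes were called in either direction. The median log2 change was 3.55 over members and -0.01 over all genes. The 7 members that did not pass were Igkv4-86, Igkv4-70, Igkv8-27, Igkv8-16, Ighv9-4, Ighv1-63 and Ighv1-2. The largest changes were those of Igkv6-29 (7.29), Igkv4-77 (6.73) and Igkv4-63 (6.37), which had 2, 4 and 1 counts in all 14 untreated libraries together, so their size rests on very few reads. Igkv6-29 also varied in share with Ighv5-6 (Pearson r = 0.986 over all libraries), and Ighv5-6 led in only 3 libraries, all wild-type IFN-γ females. Only 1 member had IFN-γ and untreated libraries that did not overlap, as did 0.0587% of all genes. Within a sex, 140 members were called in wild-type females (28.4% of all genes) and 64 in wild-type males (6.36%), all higher.

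In knock-in libraries 28 of 151 rose (11 Ighv, 16 Igkv and 1 Iglv) and 2 fell, where 7.98% of all genes were called, with a median of 0.91 over members. Igkv17-127 rose most (4.71 ± 0.59), from 0.0600 to 0.586 CPM in 16 untreated libraries to 0.138 to 49.1 in 15 IFN-γ libraries, followed by Igkv6-15 (4.56 ± 0.83) and Igkv3-2 (3.84 ± 0.57). Only Igkv3-2 of these had groups that did not overlap (0.0103 to 0.147 and 0.251 to 2.72 CPM), as did 0.0135% of all genes. Iglv2 (above) and Ighv10-1 (-1.60 ± 0.44) fell. Within a sex, 26 rose and 3 fell in knock-in females (12.4% of all genes called), and 9 rose in knock-in males (0.307%). Without knock-in young IFN-γ female 1 the members called went from 30 to 17.

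The difference between genotypes in the IFN-γ label change was lower in knock-in for 79 of 151 members (38 Ighv, 39 Igkv and 2 Iglv) and higher for none, where 12% of all genes were called. The median difference was -2.71 over members and -0.01 over all genes. Largest were Ighv9-1 (-6.55 ± 1.71), Igkv6-29 (-6.45 ± 1.90) and Igkv4-63 (-6.14 ± 1.05). Of these, Igkv6-29 varied in share with Ighv5-6 (above), which led in 3 wild-type IFN-γ females. Among the leading segments Igkv12-89 (-4.73 ± 0.98), Ighv1-55 (-4.23 ± 0.99) and Igkv1-117 (-2.72 ± 0.79) passed, whereas Ighv5-6 (-4.97 ± 1.94, adjusted p = 0.0793), Igkv8-30 (-4.20 ± 1.65, adjusted p = 0.0829) and Ighv1-52 (-2.11 ± 1.27, adjusted p = 0.275) did not. In females alone 80 members were called, all lower (8.93% of all genes), and in males alone 0 (0% of all genes). In males 52 members had an unadjusted p under 0.05, for which no share of all genes was taken, so that count gives no result about the members. Whether the sexes differ in this was not tested. With close libraries joined 39 members were called, given here only beside the main count of 79 and not against all genes.

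Genotype was then compared within each sex, age label and treatment, and these contrasts share their libraries with those above. In old IFN-γ females 5 members were higher and 38 lower in knock-in, where 4.48% of all genes were called, with a median of -2.09. Igkv8-30 (-10.35 ± 1.69) and Ighv5-6 (-7.44 ± 1.23) fell furthest. Ighv5-6 held 0.275, 0.789, 157, 139 and 0.246 CPM in wild-type libraries 1 to 5 and 0.735, 0.663, 0.0610, 0.120 and 0.114 in knock-in libraries, so that 2 wild-type libraries set its change and the groups overlapped. Igkv12-89 fell by 6.33 ± 1.24 (0.526 to 67.3 CPM in wild-type, 0.0207 to 0.432 in knock-in). Ighv1-63 (6.57 ± 1.26), Igkv4-86 (5.87 ± 1.18) and Ighv1-2 (4.31 ± 1.28) rose furthest, and Igkv4-86 held 15.6 and 14.4 CPM in knock-in libraries 1 and 2 and 0.0438 to 0.0813 in the other 3.

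Igkv17-127 also rose in old IFN-γ females (4.27 ± 0.90, adjusted p = 0.00548): wild-type libraries 1 to 5 held 1.37, 3.00, 0.127, 0.215 and 0.600 CPM and knock-in libraries 26.8, 26.2, 49.1, 0.427 and 0.559. The groups overlapped through knock-in libraries 4 and 5. Of the members, 16 had groups that did not overlap (4.4% of all genes), and 103 had an unadjusted p under 0.05 (22% of all genes). The count of 43 fell to 13 without wild-type female 2, to 26 to 28 without knock-in females 1, 2, 3 or 5 in turn, to 12 without the 4 doubted libraries (knock-in old 4 and 5, wild-type old 2 and young 1), to 1 with replicate numbers as a block and to 0 with close libraries joined.

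In young IFN-γ females, with 2 knock-in and 3 wild-type libraries, 1 member rose and 28 fell in knock-in, where 3.79% of all genes were called, with a median of -3.35. Ighv1-63 rose (5.32 ± 1.53), with 7.47 and 0.0464 CPM in the knock-in libraries. Igkv8-30 fell by 9.39 ± 2.51, from 0.727, 123 and 0.293 CPM in wild-type libraries 1, 2 and 5 to 0.0555 and 0.0650 in knock-in libraries. Ighv9-1 and Ighv5-12 had the other large fitted changes but no count in either knock-in library, so their size is not printed. The count of 29 was 0, 2 and 5 without knock-in 1, knock-in 2 or wild-type 1, and 51 without wild-type 2. It was 56 by DESeq2, which gave no adjusted p for 47 members, 14 with close libraries joined, 11 without the doubted libraries and 5 with replicate numbers as a block.

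In old IFN-γ males 9 members rose and 5 fell in knock-in, where 5.92% of all genes were called, with a median of -0.76. Ighv5-16 rose by 4.67 ± 0.98 and Igkv12-44 by 3.75 ± 0.88. Ighv5-16 lay at 0 to 0.161 CPM in the 5 wild-type libraries and at 0.700, 0.181, 4.82, 0.219 and 5.30 in knock-in libraries 1 to 5, all above the wild-type values. Igkv12-44 lay at 0.211 to 0.439 CPM in wild-type and at 9.73 and 10.6 in knock-in libraries 3 and 5, with the other 3 at 0.149 to 0.229. Igkv8-16 (6.79 ± 1.44) and Ighv9-4 (6.70 ± 1.61) rose through knock-in library 1 in the main, which held 19.5 and 6.90 CPM. Igkv4-57-1 (-5.13 ± 1.23) and Igkv12-89 (-3.63 ± 1.15) fell together with Igkv4-91 and Ighv12-3. The count of 14 was 5 without wild-type old male 5, 9 without knock-in old male 2, and 0 with replicate numbers as a block or with close libraries joined.

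In young IFN-γ males 1 member was called, where 0.0181% of all genes were. Ighv5-16 rose by 5.61 ± 1.06 (adjusted p = 0.0300), with 0.0102 to 0.153 CPM in 5 wild-type libraries and 0.611, 3.90 and 5.93 in knock-in libraries 2 to 4, which did not overlap. Igkv12-44 held 0.267, 7.77 and 9.26 CPM there, against 0.0878 to 0.666 in wild-type. The count was 0 with replicate numbers as a block or with close libraries joined, 4 by DESeq2, and 0 to 2 when single libraries were left out.

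No member was called by genotype in any untreated stratum by edgeR. In young females 0.312% of all genes were called, in old females 0.00452%, in young males 0% and in old males 0.00452%. In the same order 18, 37, 7 and 10 members had an unadjusted p under 0.05, as did 12.6%, 19.4%, 11.6% and 3.35% of all genes. DESeq2 called 1, 3, 2 and 1 members and gave no adjusted p for 91, 15, 1 and 1. The median log2 difference of the members, knock-in over wild-type, was 0.72, 1.28, 0.81 and 0.94, against medians between -0.01 and 0.02 over all genes. The 4 B-1 segments had medians against that direction, at -1.77, -1.38, -0.60 and -0.27 in the same order, and Ighv12-3 in young untreated females was furthest (-4.86 ± 1.40, adjusted p = 0.0960). In young males the pairs split, with Ighv11-2 at -1.74 and Igkv14-126 at -1.75, but Ighv12-3 at 0.54 and Igkv4-91 at 0.91. In old males the 4 lay between -0.57 and -0.07.

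**Figure D5:**
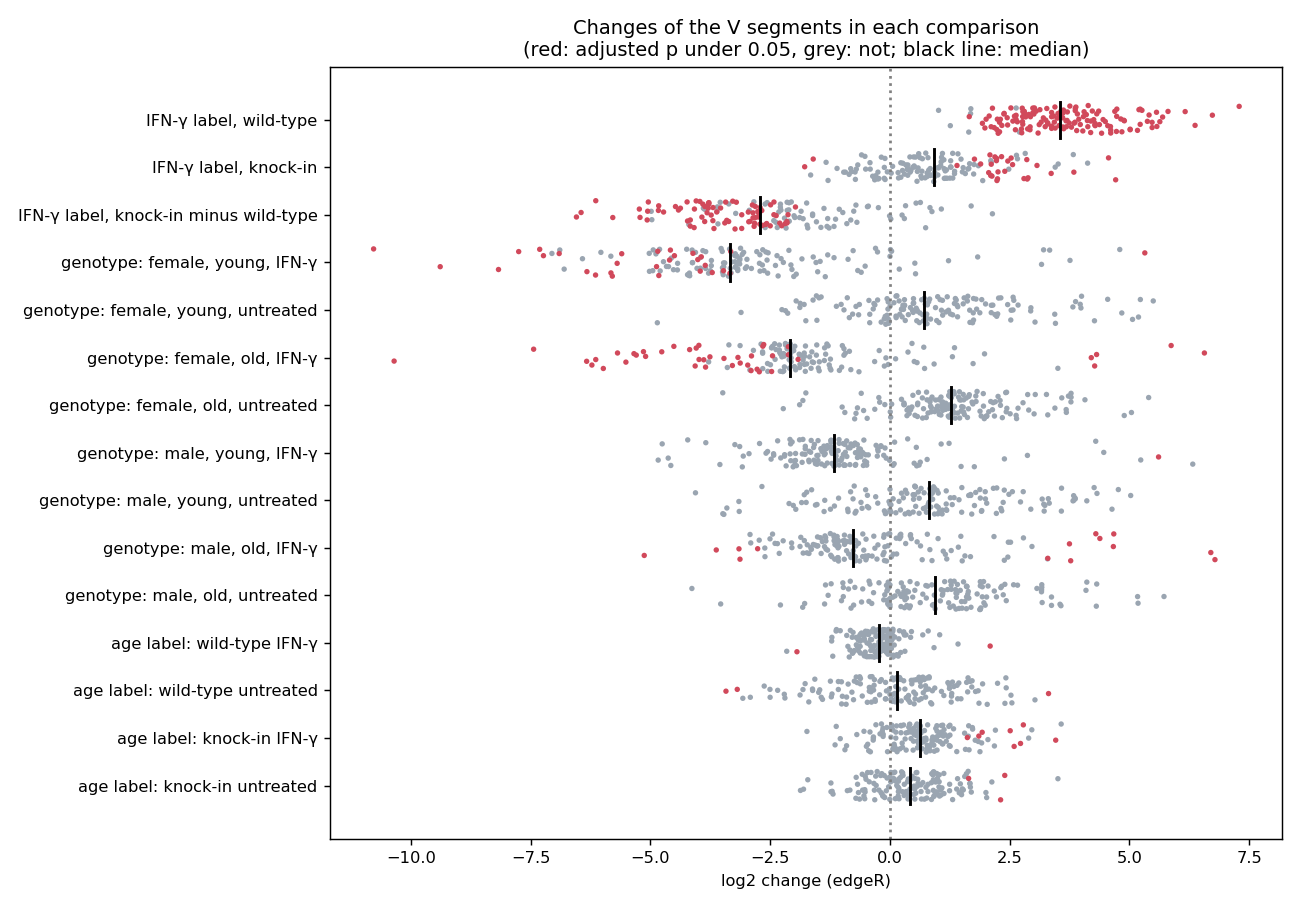
Log2 changes of the 151 V segments in each contrast (rows); each point is 1 segment, red points passed an edgeR adjusted p of 0.05 and black lines are medians. In wild-type libraries 144 segments lie above 0 and pass with the IFN-γ label, against 28 in knock-in libraries, and no segment passes in the untreated genotype contrasts.

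The age label moved few members while it moved many other genes. Old over young, 2 of 151 were called in wild-type IFN-γ libraries (Ighv5-12 higher, Igkv2-107 lower), where 48.7% of all genes were called. In wild-type untreated libraries 3 were called, where 51.5% of all genes were: Ighv1-47 higher (26 counts in 8 old against 2 counts in 6 young libraries), and Ighv5-9 and Ighv1-58 lower (1 count each in old against 11 and 14). In knock-in untreated libraries 3 were called (Ighv1-71, Ighv4-1 and Igkv3-7, all higher), where 47.4% of all genes were. Ighv1-71 is identical over the last 280 transcript bases to Ighv1-62-2, so its counts are uncertain.

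In knock-in IFN-γ libraries 8 members were higher in old libraries, where 52.7% of all genes were called: Igkv5-43 (3.46 ± 1.04), Igkv8-21 (2.79 ± 0.92), Ighv1-50 (2.73 ± 1.16), Igkv5-45, Ighv4-1, Igkv8-19, Igkv3-7 and Iglv1. Igkv5-43 lay at 42.3 CPM in old male 4 and Ighv1-50 at 4.81 CPM in the same library, and without it the change of Ighv1-50 was -0.082. The unadjusted p was under 0.05 for 4, 6, 7 and 11 members in the wild-type IFN-γ, wild-type untreated, knock-in untreated and knock-in IFN-γ contrasts, and for 53.9%, 56%, 52.6% and 57.2% of all genes. When single libraries were left out, the counts ran from 0 to 21, 2 to 5, 0 to 5 and 2 to 15 in that order.

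The other immunoglobulin genes were read from fixed lists. Of 12 constant region genes tested, 12 rose with IFN-γ labels in wild-type and 8 in knock-in libraries. Ighm rose by 3.56 ± 0.38 and 2.51 ± 0.36, Igkc, the kappa constant region, by 3.53 ± 0.35 and 2.90 ± 0.34, and Ighd, the constant region of IgD on naive follicular B cells, by 4.54 ± 0.40 and 2.35 ± 0.36. The difference between genotypes passed for Ighd (-2.19 ± 0.50, adjusted p = 0.00395) and Iglc2 (-1.72 ± 0.47, adjusted p = 0.0131), not for Ighm (-1.05 ± 0.48, adjusted p = 0.134) or Igkc (-0.63 ± 0.45, adjusted p = 0.363). Of 10 joining segments tested, 10 rose in wild-type and 9 in knock-in libraries. Only 1 of 6 genes for V(D)J recombination and the surrogate light chain passed the filter on low counts, with no call, and their sum lay at 0.0514 to 0.395 CPM over all libraries.

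Of 20 B cell identity genes 18 rose with IFN-γ labels in wild-type (Cd79a by 4.02 ± 0.36) and 17 in knock-in libraries (Cd79a by 2.18 ± 0.33), and Blnk and Cd22, which macrophages also transcribe, fell in wild-type. Of 5 genes that mark B-1 cells, 3 rose in each genotype, among them Cd5 (2.41 ± 0.37 and 1.84 ± 0.37) and Zbtb32 (2.48 ± 0.37 and 1.76 ± 0.36). The sum of the 5 overlapped, at 79.7 to 158 CPM in IFN-γ libraries and 64.0 to 139 in untreated ones, and went both ways by group. Its median was 83.9 CPM with IFN-γ labels and 123 untreated in wild-type old males. In wild-type old females it was 88.4 and 65.0 CPM. Plasma cell genes were mixed, with 5 of 9 higher and 1 lower in wild-type and 2 higher and 1 lower in knock-in libraries, and Jchain, which links IgM and IgA polymers in secreting cells, rose by 2.51 ± 0.50 and 2.99 ± 0.51. The sum of the 9 plasma cell genes overlapped, at 270 to 419 CPM (median 324) in IFN-γ libraries and 308 to 463 (median 348) in untreated ones. Of the 3 genes for factors at the octamer element of V promoters (Pou2f1, Pou2f2 and Pou2af1), 3 rose in wild-type and 2 in knock-in libraries. Markers of other cells moved the same way: 9 and 8 of 9 T cell markers rose (sums of 1.58 to 19.4 CPM in IFN-γ libraries and 0.746 to 2.52 in untreated ones) and 4 and 4 of 4 red cell markers rose (1.11 to 361 and 0.705 to 18.5 CPM). The part of these cells in the V segment results was not tested.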

How the data were processed

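Polyadenylated RNA of 63 libraries was sequenced with a strand-directional kit, per the labels' protocols. The authors deposited whole-number read counts per gene, and FPKM values in a second table. The submitters' processing notes name STAR 2.7.9a, GRCm39 and DESeq2 1.40.2. The counter, annotation and strand setting were not given in these sources. Gene symbols came from a GRCm38 annotation (52073 of 56748 identifiers matched), so no coordinates are printed.

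Counts entered edgeR 4.0.16 (R 4.3.3, quasi-likelihood F test) in 1 fit of all 63 libraries with 16 group coefficients, filterByExpr (22147 genes kept, with 99.992% of counts) and TMM factors (0.886 to 1.233). Benjamini-Hochberg adjustment was made over all tested genes of a contrast, and 0.05 was the threshold. Changes are log2 fold changes, and the SE is the change divided by the square root of F. Levels are CPM. The deposited FPKM values served only to compare segments per length. Shares are of the members' counts of a locus, with exact Clopper-Pearson 95% intervals, and a count of 0 allows up to 3 counts. The steps were tested on simulated data.

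The members and gene lists were chosen with earlier results of these data known. Named segments are the 4 B-1 segments, the 5 highest mean FPKM values per locus, up to 3 members called in each direction with the largest change per contrast, segments with 30% or more of a locus in a library with at least 500 counts of that locus, the segments at the edge of the sum rule, and up to 4 genes of each list with the highest mean CPM. Other named genes were chosen after their values were seen. Alternatives were DESeq2 1.42.0, other scaling, no filter, other count minimums, a replicate block, single libraries left out, 4 doubted libraries left out and, chosen after seeing the data, each sex alone and close libraries of a group joined (median chi-square ratio under 6, which leaves 51 libraries).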

Additional observations from a re-analysis of the deposited data

Results flagged for a closer look

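In 56 combinations of a group of 4 or 5 libraries and a measure of V segment use, 1 library lay far from the rest of its group by Dixon's criterion, which chance meets in about 1 in 20 groups. Wild-type old IFN-γ female 2 held 5.32 CPM of Ighv12-3, a heavy segment of phosphatidylcholine-binding B-1a receptors, and the other 4 libraries of its group held 0.140 to 1.43 CPM. The same library held 197 CPM of Cd79a, against 26.6 to 61.1 CPM in the other 4.

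The change with the IFN-γ label differed between the genotypes, by the test of that difference in edgeR, for 9 of the named segments, in each case with the lower change in knock-in libraries. Of all 151 members 79 were called in this contrast, all lower in knock-in, where 12% of all genes were called in either direction. The difference (log2, knock-in minus wild-type, averaged over sex and age label) was -2.19 ± 0.49 SE for Iglv1 (adjusted p = 0.00354) and -3.79 ± 0.50 for Iglv2 (adjusted p = 1.27e-05), both lambda segments. It was -2.42 ± 0.74 for Igkv4-91 (adjusted p = 0.0263), the light chain partner of Ighv12-3, and -2.72 ± 0.79 for Igkv1-117 (adjusted p = 0.0188). Igkv4-91 missed the threshold with replicate numbers as a block (edgeR adjusted p = 0.145), with close libraries joined (0.119) and without the 4 doubted libraries (0.108). Larger differences were those of Igkv12-89 (-4.73 ± 0.98, adjusted p = 0.00180) and Ighv1-55 (-4.23 ± 0.99, adjusted p = 0.00453). The largest were those of Igkv4-63 (-6.14 ± 1.05, adjusted p = 4.47e-04), Igkv6-29 (-6.45 ± 1.90, adjusted p = 0.0216) and Ighv9-1 (-6.55 ± 1.71, adjusted p = 0.0106), segments with very few reads in untreated libraries. These segments were named because they had the largest called changes in this same contrast. Igkv6-29 varied in share with Ighv5-6 (above), which led in 3 wild-type IFN-γ females. Cd79a differed in the same direction (-1.84 ± 0.45, adjusted p = 0.00660), and its part in these differences was not tested.

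In knock-in libraries the change with the IFN-γ label differed between the sexes, by the test of that difference in edgeR, for both segments of the first B-1a pair. Male minus female it was 5.80 ± 0.98 SE for Ighv11-2 and 6.00 ± 0.98 for Igkv14-126 (log2, adjusted p = 0.00194 for both). The females include knock-in old IFN-γ libraries 4 and 5, which held almost no Xist. The test was not repeated without them, with replicate numbers as a block or with close libraries joined. In 4 of the 8 knock-in IFN-γ males Ighv11-2 lay at 41.2 to 145 CPM, and in the other 4 at 2.21 to 3.26.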

How the results depend on the processing

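Of 144 counts of called V segments under alternatives, 101 stayed within 1.5 times the main count. The contrasts are named by sex, age label and treatment. DESeq2 gave 56 members by genotype in young IFN-γ females (29 by edgeR), 4 in young IFN-γ males (1), and 1, 3, 2 and 1 in untreated young females, old females, young males and old males (0 each). By the age label it gave 13 in knock-in IFN-γ (8), 8 in knock-in untreated (3), 0 in wild-type IFN-γ (2) and 7 in wild-type untreated libraries (3). DESeq2 gave no adjusted p for 47 to 91 of the 151 members in young females and in old IFN-γ libraries of both sexes, 6 in young IFN-γ males, 15 in old untreated females and 1 in each other contrast. Without the filter on low counts, 19 were called by genotype in young IFN-γ females, and 0 and 0 by age in knock-in untreated and wild-type IFN-γ libraries.

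With a minimum of 1000 summed counts, fewer segments could be called: 67 with IFN-γ labels in wild-type (144), 38 in the difference between genotypes (79), 27 by genotype in old IFN-γ females (43), and by age 5 in knock-in IFN-γ and 0, 0 and 0 in the other 3 contrasts. With a minimum of 50, 5 were called by age in knock-in untreated libraries. With close libraries joined, an alternative chosen after seeing the data that leaves 51 libraries, 39 were called in the difference between genotypes, 14 by genotype in young IFN-γ females, 0, 0 and 0 in old IFN-γ females, old IFN-γ males and young IFN-γ males, and 0 and 0 by age in knock-in untreated and wild-type IFN-γ libraries. Without the 4 doubted libraries, the genotype counts were 12 in old and 11 in young IFN-γ females, 1 in old untreated females and 2 in young IFN-γ males, and the age counts 6 in knock-in untreated and 1 in wild-type IFN-γ libraries.

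With replicate numbers as a block, the genotype counts were 1 in old and 5 in young IFN-γ females and 0 and 0 in old and young IFN-γ males, and the age counts 1 in knock-in untreated and 6 in wild-type untreated libraries. Deviations of same-numbered libraries correlated above 0.1 in 17 of 26 pairs across age labels (median r 0.160), 11 of 26 across treatments (0.067) and 7 of 26 across genotypes (0.045). The labels do not say what a number marks and not every pair correlated, so pairing is not shown, though many libraries with different age labels deviated together. With this block the age change of Igkv8-30 in wild-type IFN-γ libraries was -1.98, against its opposite sign without.

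When single libraries were left out, the counts ran from 140 to 146 with IFN-γ labels in wild-type, 17 to 34 in knock-in and 61 to 83 in their difference. By genotype they ran from 13 to 63 and 0 to 51 in old and young IFN-γ females, 5 to 12 and 0 to 2 in old and young IFN-γ males, 0 to 4 in old untreated females and 0 to 0 in the other untreated strata. By age they ran from 2 to 15 and 0 to 5 in knock-in IFN-γ and untreated libraries, and 0 to 21 and 2 to 5 in wild-type ones. The sign changed for Ighv1-63 in young IFN-γ females (-0.97 without knock-in library 1, up to 6.58), Ighv9-4 in old IFN-γ males (-0.16 without knock-in library 1, up to 7.30), Igkv1-117 by age in wild-type IFN-γ libraries (-1.67, and 1.68 without young female 1) and Ighv1-50 by age in knock-in IFN-γ libraries (-0.082 without old male 4, up to 3.23). Fewer libraries or segments account for part of these shifts by construction, and otherwise the cause was not tested.

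With 1 sex alone in the contrast, chosen after seeing the data, 64, 9 and 0 members were called in males with IFN-γ labels in wild-type, in knock-in and in their difference. The knock-in change in females was -0.77 for Ighv11-2 and -0.75 for Igkv14-126.

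Ighv11-2 led the heavy locus in 44 libraries by FPKM and in 45 among segments with 1000 or more counts. The nearest library shared genotype, sex and treatment in 29 to 31 IFN-γ libraries under the other measures of likeness. Scaling by library totals alone moved the median of all genes by up to -0.149 (log2, by age in knock-in IFN-γ libraries), and the other scaling by less than 0.1. Depth limits the untreated libraries most: with 500 heavy counts in knock-in young untreated female 1, a count of 0 allows a share of up to 0.600%. The octamer search in V promoters was not run, because the promoter table holds 0 of these segments.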
